A study of Mus musculus with 13 samples.

Results

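The genes described here are 10 members of the NFAT and calcium signalling pathway: the store sensor Stim1, the plasma membrane channel Orai1, the calcineurin subunits Ppp3ca, Ppp3cb and Ppp3r1, the calcineurin inhibitor Rcan1, and the transcription factors Nfatc1, Nfatc2, Nfatc3 and Nfat5. They were chosen by symbol, and all 10 were found among the 17849 genes of the count table. RNA-seq was made from sorted CD4+CD8+ double-positive thymocytes, 2 libraries labelled Rad21 KO and 2 labelled wild type. The knockout columns of the count table are spelled Rad1KO and were matched to the Rad21 KO labels by the rest of the name. Rad21 encodes a subunit of cohesin, the ring complex that holds chromatin loops together, and the comparison addresses how transcription in these cells changes when cohesin is depleted. The labels of the RNA samples give no strain, age, treatment or sex, and the way Rad21 was deleted is not stated. Whether the 2 libraries of a genotype came from separate animals is also not given, so p-values measure the spread between libraries, which may be technical.

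In T cells, a T cell receptor signal releases calcium from the endoplasmic reticulum, and STIM1 senses the emptied store and opens ORAI1 in the plasma membrane. The calcium that enters binds calmodulin and activates calcineurin, a phosphatase made of a catalytic A subunit and a regulatory B subunit. Calcineurin dephosphorylates the NFATc proteins, which then enter the nucleus, while NFAT5 has no calcineurin dependence of this kind and is known for the response to hypertonic stress. In double-positive thymocytes this pathway takes part in positive selection.

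The Rad21 KO libraries held 9384505 and 6914654 counts, and the wild type libraries 6633506 and 6500819. Lars2 and Gm15564 made up 34.5% (Rad21 KO replicate 1) and 12.6% (replicate 2) of all counts in the knockout, against 5.84% (wild type replicate 1) and 7.47% (replicate 2). Rad21 itself had 496 and 473 counts in the Rad21 KO libraries, against 1982 and 1682 in the wild type libraries, with a log2 fold change of -1.91. Of 10 markers of double-positive thymocytes, all passed the filter on low counts, and their summed level was 8380 to 9700 CPM (counts per library total, the totals adjusted by TMM factors) in the Rad21 KO libraries, against 12100 to 13500 CPM in the wild type libraries. Among them Cd4, Cd8a, Cd8b1 and Cd3e did not pass the threshold, while Rag1, Rag2, Dntt and Cd1d1 were lower and Ptcra was higher. The summed levels of marker lists for B cells, myeloid cells, thymic epithelium, NK cells and erythroid cells lay between 2.46 and 33.9 CPM in every library.

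Promoter sequences are shown for Nfatc2 and Orai1, the members with the largest changes, and for Rcan1, whose inner promoter is a known calcineurin-responsive element. They are the 250 bases before each annotated start, 5′ to 3′ on the gene's strand, from RefSeq on build GRCm38.p6, in which 8 of the 10 genes matched, all but Nfatc1 and Ppp3ca. Capitals mark GGAAA or its reverse complement TTTCC, the core that NFAT proteins bind. That core contains GGAA, which ETS factors also read.
Nfatc2 outer start, minus strand, chr2:168601658-168601907: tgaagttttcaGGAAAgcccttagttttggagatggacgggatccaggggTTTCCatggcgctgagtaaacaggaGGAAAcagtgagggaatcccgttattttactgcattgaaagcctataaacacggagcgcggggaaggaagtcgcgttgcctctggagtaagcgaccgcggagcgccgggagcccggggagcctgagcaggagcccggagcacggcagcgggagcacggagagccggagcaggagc
Nfatc2 inner start, minus strand, chr2:168590366-168590615: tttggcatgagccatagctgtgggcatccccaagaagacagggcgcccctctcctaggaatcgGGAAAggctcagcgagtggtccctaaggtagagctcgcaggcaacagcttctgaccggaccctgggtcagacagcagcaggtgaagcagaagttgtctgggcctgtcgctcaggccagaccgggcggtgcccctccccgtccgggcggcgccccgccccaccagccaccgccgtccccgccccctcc
Orai1, plus strand, chr5:123014824-123015073: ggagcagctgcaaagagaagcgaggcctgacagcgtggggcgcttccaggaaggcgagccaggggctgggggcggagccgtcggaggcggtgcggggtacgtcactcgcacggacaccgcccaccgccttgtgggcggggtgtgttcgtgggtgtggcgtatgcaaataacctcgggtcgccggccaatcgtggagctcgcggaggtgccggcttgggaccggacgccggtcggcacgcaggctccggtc
Rcan1 inner start, minus strand, chr16:92400079-92400328: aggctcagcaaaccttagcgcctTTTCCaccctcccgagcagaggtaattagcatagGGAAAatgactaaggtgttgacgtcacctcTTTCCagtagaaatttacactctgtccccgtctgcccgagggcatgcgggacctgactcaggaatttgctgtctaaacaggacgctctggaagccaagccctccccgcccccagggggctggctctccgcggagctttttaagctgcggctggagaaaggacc
Rcan1 outer start, minus strand, chr16:92466170-92466419: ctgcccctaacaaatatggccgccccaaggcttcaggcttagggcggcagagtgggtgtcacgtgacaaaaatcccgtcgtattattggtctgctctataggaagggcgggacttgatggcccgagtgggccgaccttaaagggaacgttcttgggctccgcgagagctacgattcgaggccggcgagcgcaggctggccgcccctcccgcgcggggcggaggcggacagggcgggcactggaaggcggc
The core occurred 3 times before the outer Nfatc2 start, 1 time before the inner Nfatc2 start, 3 times before the inner Rcan1 start, and 0 times before the outer Rcan1 start and before Orai1. On either strand, 55.6% of all 32851 promoter windows of this length hold it. The window before the inner Rcan1 start also held 1 AP-1 site (TGANTCA, found in 6.75% of all windows) and 1 cyclic AMP response element (TGACGTCA, in 1.55%), and neither overlapped an NFAT core. Among windows of tested genes, the shares were 53.8% for the NFAT core, 4.13% for the AP-1 site and 2.54% for the cyclic AMP response element. The counts per gene do not separate transcripts from the different starts.

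Of the 10 genes, 4 were higher and 1 was lower in Rad21 KO thymocytes and 5 did not pass the threshold, an adjusted p under 0.05 in edgeR's quasi-likelihood fit over all 12003 genes tested. Among all genes tested, 12.8% were called, 7.60% higher and 5.17% lower. The genes that rose were Nfatc2, Orai1, Ppp3ca and Nfatc1, and the gene that fell was Ppp3cb. All 10 passed the filter on low counts, and the lowest count in any library was 25, for Rcan1. The median log2 fold change of the 10 genes was 0.21, against -0.01 over all genes tested. The log2 fold change was above 0 in 7 of the 10 genes, beside 48.7% of all genes tested. The 2 genotypes did not overlap in 7 of the 10 genes, or 70%, which is beside 58.9% of all genes tested. The genes were chosen with earlier results of these data known, so these shares describe them and are no test of the pathway.

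**Figure D1:**
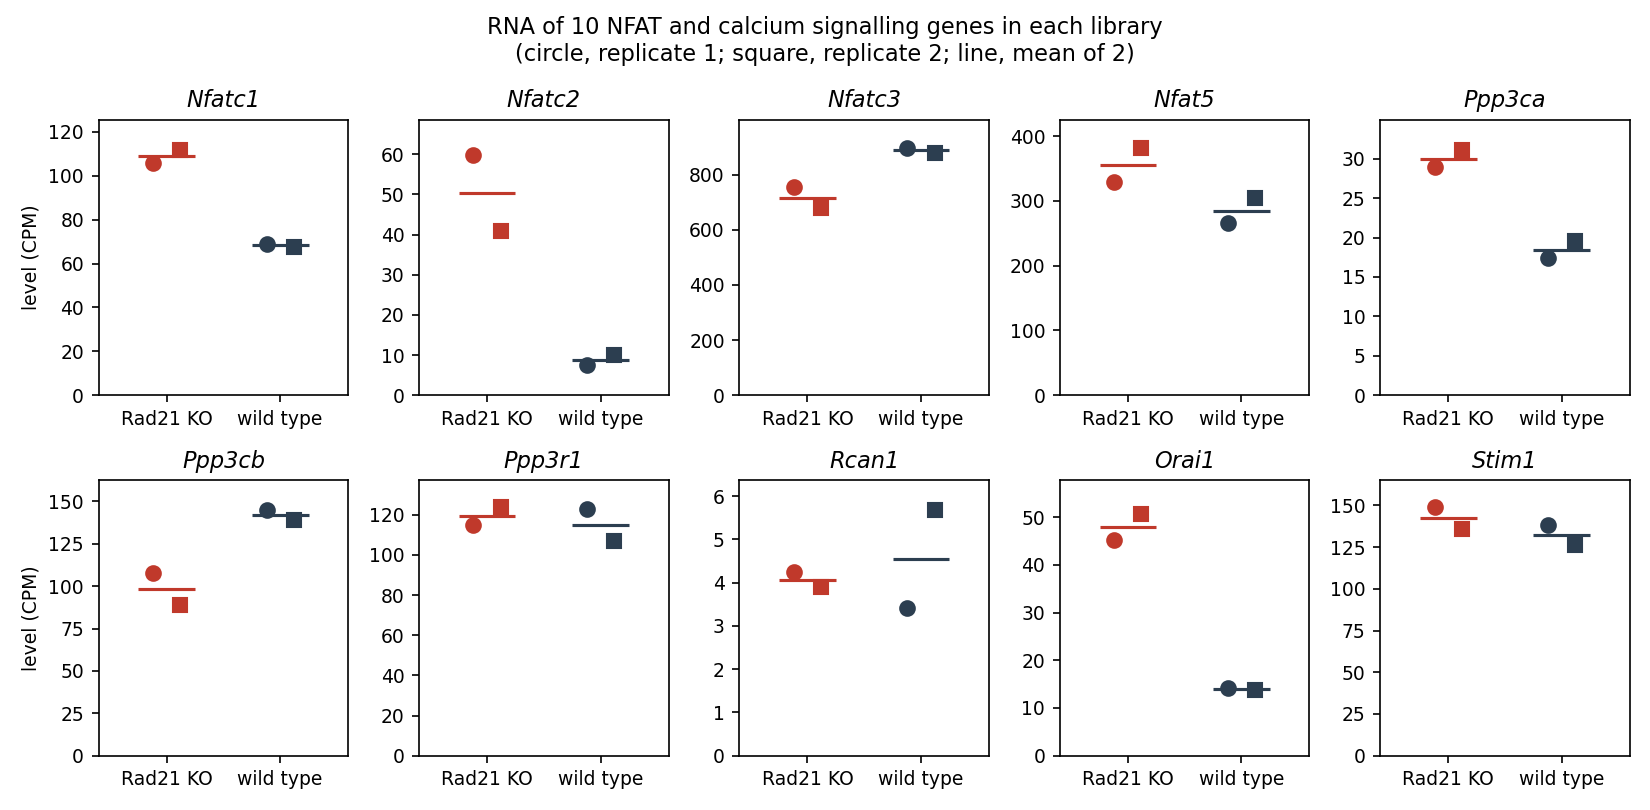
Level of each of the 10 genes in CPM (vertical axes, each from 0) in the 2 Rad21 KO libraries and the 2 wild type libraries, with the mean of each genotype as a line. Nfatc2 stood at 59.8 and 41.0 CPM in Rad21 KO against 7.52 and 9.97 CPM in wild type, and the points of Ppp3r1, Rcan1 and Stim1 overlap between the genotypes.

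Among the genes of calcium entry, the channel rose and the sensor that opens it did not pass the test. Orai1, which encodes the pore of the store-operated channel, had 330 and 365 counts in the Rad21 KO libraries, against 104 and 99 counts in the wild type libraries. In CPM these were 45.2 and 50.7 in Rad21 KO and 14.2 and 13.7 in wild type. Both knockout libraries lay above both wild type libraries, and the replicates of each genotype were close. The log2 fold change of Orai1 was 1.78 (SE 0.15, 95% interval 1.42 to 2.14, n = 2 per genotype, adjusted p = 0.00154 by edgeR), a 3.43-fold higher level. By size of change it ranked 290 among the 12003 genes. With each library left out in turn the value lay between 1.71 and 1.87, and the call held in each case.

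Stim1, the calcium sensor of the endoplasmic reticulum, had 149 and 136 CPM in Rad21 KO and 138 and 126 CPM in wild type. These values overlapped between the genotypes. Its log2 fold change was 0.11 (SE 0.11, 95% interval -0.14 to 0.36, adjusted p = 0.545 by edgeR), so a change of the size of Orai1 lay outside the interval. Orai1 counts were 30.4% and 37.2% of Stim1 counts in the Rad21 KO libraries, against 10.3% and 10.9% in the wild type libraries. Such a ratio within a library does not depend on how libraries are scaled.

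The remaining genes of store-operated entry did not pass the threshold. Of 9 listed genes, all tested, Orai1 alone was called, at a median log2 change of 0.03, and 2 genes were called without wild type replicate 1. Over all genes tested 12.8% were called. The channel paralog Orai2 stood at -0.01 (SE 0.12) on this scale and its paralog Orai3 at 0.44 (SE 0.33). The second sensor Stim2 stood at 0.03 (SE 0.14), and Saraf, which inactivates the channel, at 0.16 (SE 0.22).

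The calcineurin catalytic genes moved in opposite directions. Ppp3ca, which encodes the alpha form of the catalytic A subunit, had 211 and 224 counts in the Rad21 KO libraries, against 127 and 141 counts in the wild type libraries. This was 28.9 and 31.1 CPM in Rad21 KO and 17.4 and 19.5 CPM in wild type, without overlap. Its log2 fold change was 0.70 (SE 0.16, 95% interval 0.33 to 1.08, adjusted p = 0.033 by edgeR). The call was lost without Rad21 KO replicate 2 (0.66), without wild type replicate 1 (0.62) or 2 (0.78), and in DESeq2 (0.70, adjusted p = 0.0774).

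Ppp3cb, which encodes the beta form, had 108 and 89.0 CPM in the Rad21 KO libraries, against 145 and 139 CPM in the wild type libraries. Both knockout libraries were below both wild type libraries, and the knockout replicates were further apart than the wild type ones. The log2 fold change was -0.53 (SE 0.13, 95% interval -0.82 to -0.23, adjusted p = 0.0377 by edgeR). The call was lost without Rad21 KO replicate 2 (-0.38) and without wild type replicate 1 (-0.49) or 2 (-0.56).

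Together these changes shifted the balance of the catalytic RNAs. Ppp3ca counts were 26.7% and 35.0% of Ppp3cb counts in the Rad21 KO libraries, against 11.9% and 14.1% in the wild type libraries, a 2.37-fold higher mean ratio. With 2 libraries against 2, an exact two-sided permutation test cannot go below p = 0.333, and the ratio was not tested. Ppp3cc, the gamma form, which is not among the 10 genes, had 25 and 20 counts in Rad21 KO and 34 and 43 in wild type, a log2 change of -0.77 (SE 0.34, adjusted p = 0.184 by edgeR).

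Ppp3r1, the regulatory B subunit that binds calcium, had 115 and 124 CPM in Rad21 KO and 123 and 107 CPM in wild type. The genotypes overlapped, and the log2 fold change was 0.05 (SE 0.12, 95% interval -0.22 to 0.32). The alternative B subunit gene Ppp3r2 had 0 and 2 counts in the Rad21 KO libraries and 0 in both wild type libraries.

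Rcan1, whose product binds and inhibits calcineurin and whose inner promoter is shown above, had few counts in every library. These were 31 and 28 counts in Rad21 KO and 25 and 41 counts in wild type, or 4.24 and 3.89 CPM in Rad21 KO and 3.42 and 5.68 CPM in wild type. The wild type libraries lay on both sides of the knockout libraries. The log2 fold change was -0.16 (SE 0.37, adjusted p = 0.814 by edgeR), with a 95% interval of -1.02 to 0.70, the widest of the 10 genes. Its sign turned without wild type replicate 2 (0.25).

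Of the 10 listed calcineurin inhibitors and scaffolds, 8 were tested and 0 were called, beside 12.8% of all genes tested, at a median log2 change of -0.12. Without Rad21 KO replicate 1, 1 listed gene was called lower. The scaffold inhibitor Cabin1 stood at 0.04 (SE 0.10) and the calcineurin B homologue Chp1 at -0.08 (SE 0.12). Of 6 kinases that phosphorylate NFAT proteins and favour their exit from the nucleus, 0 were called, beside the same 12.8% of all genes. In lists as short as these, 0 calls show little. Csnk1a1 stood at -0.09 (SE 0.10) and Dyrk1a at 0.30 (SE 0.10, adjusted p = 0.0978 by edgeR).

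**Figure D2:**
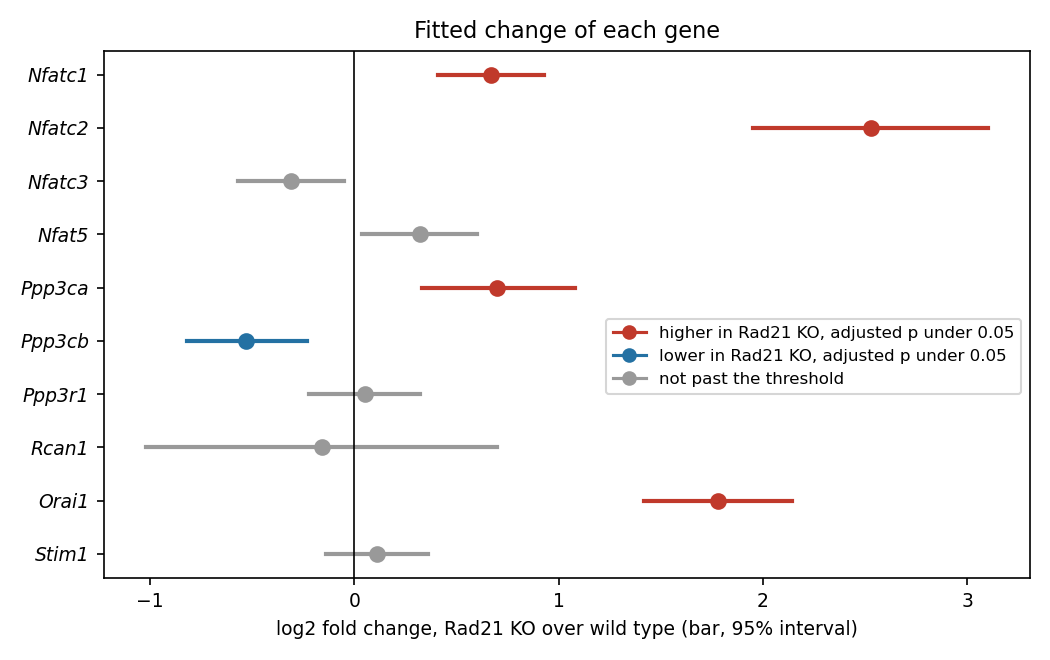
Fitted log2 fold change of each gene, Rad21 KO over wild type (horizontal axis), with its 95% interval as a bar, not adjusted for the number of genes. Nfatc2 at 2.53 and Orai1 at 1.78 lie apart from the other 8 genes, and the intervals of Ppp3r1, Rcan1 and Stim1 include 0.

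Among the NFAT genes, Nfatc2 and Nfatc1 rose and the others did not pass the threshold. Nfatc2, a calcineurin-dependent factor known for cytokine gene control in peripheral T cells, had 437 and 295 counts in the Rad21 KO libraries, against 55 and 72 counts in the wild type libraries. Both knockout libraries stood far above both wild type libraries, although the knockout replicates differed from each other. The log2 fold change was 2.53 (SE 0.24, 95% interval 1.95 to 3.10, adjusted p = 0.00219 by edgeR), or 5.76-fold, which ranked 96 by size among the 12003 genes. The value lay between 2.24 and 2.79 with each library left out in turn, and the call held each time.

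Nfatc1, a second calcineurin-dependent factor, which acts early in the thymus, had 106 and 112 CPM in Rad21 KO and 69.1 and 67.7 CPM in wild type. The replicates of each genotype were close and the genotypes did not overlap. Its log2 fold change was 0.67 (SE 0.11, 95% interval 0.41 to 0.93, adjusted p = 0.0116 by edgeR), or 1.59-fold. Leaving out any 1 library gave 0.64 to 0.72 with the call kept.

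Nfatc3, the calcineurin-dependent factor known as prominent in double-positive thymocytes, had 5513 and 4875 counts in the Rad21 KO libraries, against 6571 and 6356 counts in the wild type libraries. This was 755 and 678 CPM in Rad21 KO and 898 and 880 CPM in wild type, without overlap. The log2 fold change of -0.31 (SE 0.11, 95% interval -0.57 to -0.05) did not pass over all genes (adjusted p = 0.112 by edgeR). It stayed below 0 in all 10 alternatives, from -0.38 to -0.22.

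Nfat5, the factor of the hypertonic stress response, had 329 and 381 CPM in Rad21 KO and 266 and 304 CPM in wild type. The groups did not overlap, but the lower knockout library lay close to the higher wild type library. Its log2 fold change was 0.32 (SE 0.12, adjusted p = 0.131 by edgeR). Nfatc4, which is not among the 10 genes, had 1 and 8 counts in Rad21 KO and 5 and 3 in wild type and was too low to test.

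Within the family the balance of counts differed between genotypes. Nfatc2 counts were 7.93% and 6.05% of Nfatc3 counts in the Rad21 KO libraries, against 0.837% and 1.13% in the wild type libraries, a 7.10-fold higher mean ratio. For Nfatc1 the percentage of Nfatc3 counts was 14.0% and 16.5% in Rad21 KO and 7.70% and 7.69% in wild type. In all 4 libraries Nfatc3 kept the most counts of these 3 genes. Counts were not divided by transcript length, so the percentages show the change between genotypes and not the relative number of transcripts.

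**Figure D3:**
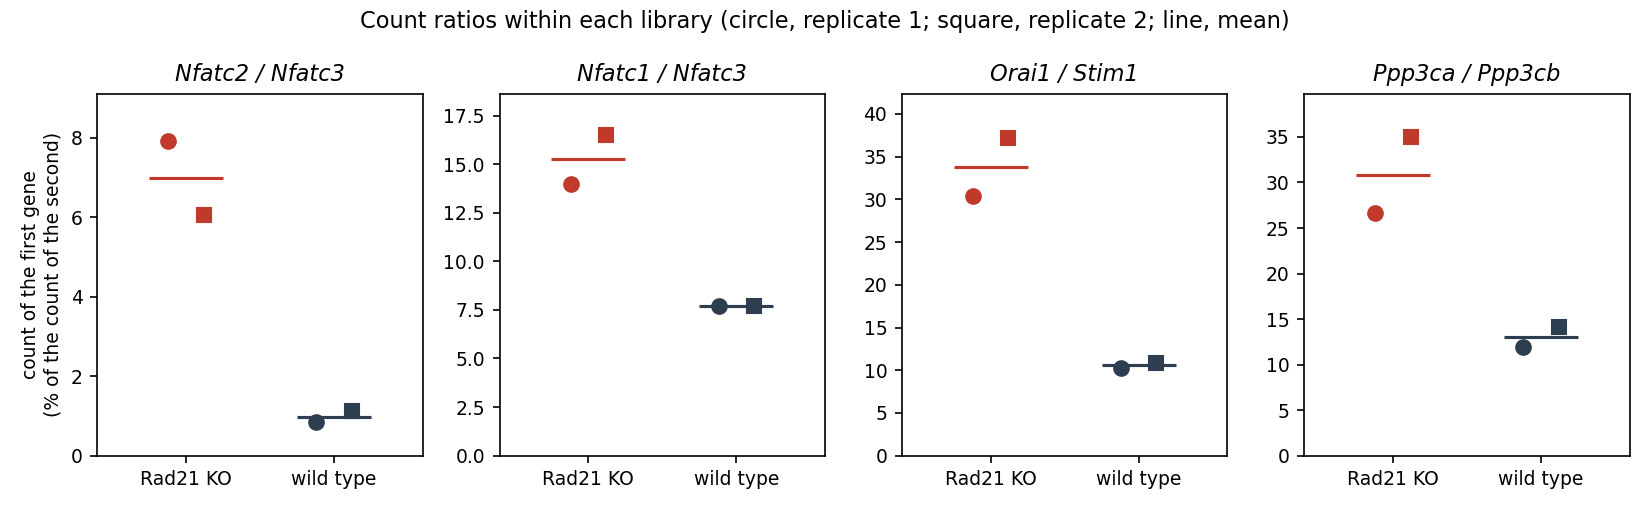
Count of one gene as a percentage of the count of another in the same library (vertical axes, each from 0), for 4 pairs, with the mean of each genotype as a line. In each pair both Rad21 KO libraries lie above both wild type libraries, as for Orai1 over Stim1 at 30.4% and 37.2% against 10.3% and 10.9%. The first gene of each pair was called higher and the second was not. This shared direction therefore follows from the choice of pairs, which was not planned.

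The 5 genes whose level followed that of Nfatc2 most closely over the 4 libraries were taken from 9821 others with a mean of at least 5 CPM, by Euclidean distance of centred log2(CPM + 1) values. In order of distance they were Il34 (0.324), Dtx1 (0.337), Npas2 (0.438), 1 identifier with no symbol in the tables (0.490) and Rora (0.493). Il34 encodes a cytokine, Dtx1 a Notch target, Npas2 a circadian transcription factor and Rora a nuclear receptor. Il34 had 31.8 and 24.6 CPM in Rad21 KO and 4.78 and 4.57 CPM in wild type. With 4 libraries, such likeness describes little beyond a similar difference between the genotypes.

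Genes further along the calcium pathway moved in both directions. Of the 81 listed pathway genes outside the 10, 78 were in the table and 65 were tested, of which 10 rose, 4 fell and 51 did not pass. That is 21.5% called, beside 12.8% of all genes tested, and the median log2 change was 0.04. Those that rose include 4 of 8 tested NFAT target genes and 3 of 6 tested NFAT5 target genes. The 21.5% is therefore not a share of the calcium signalling genes alone. The lists were chosen with earlier results of these data known.

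Among 11 genes of calcium release and clearance, Itpr3 alone was called in edgeR and 2 genes in DESeq2, beside 12.8% of all genes tested called in edgeR. Itpr3, a receptor that releases calcium from the endoplasmic reticulum in response to inositol trisphosphate, had 766 and 787 counts in the Rad21 KO libraries, against 461 and 566 in the wild type libraries, and a log2 change of 0.60 (SE 0.14, adjusted p = 0.034 by edgeR). Its call was lost without wild type replicate 1 (0.45) and without either Rad21 KO replicate (0.64 and 0.58). The paralogs Itpr1 and Itpr2 both stood at -0.07, and Plcg1, the phospholipase upstream of them, at -0.08.

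The potassium channels that keep the membrane potential favourable for calcium entry moved apart. Kcna3, which encodes the voltage-gated channel Kv1.3, had 729 and 662 counts in Rad21 KO, against 1207 and 1036 in wild type, a log2 change of -0.69 (SE 0.12, adjusted p = 0.013 by edgeR). Kcnn4, which encodes the calcium-activated channel KCa3.1, had 1342 and 1461 counts in Rad21 KO, against 1024 and 975 in wild type, a log2 change of 0.49 (SE 0.10, adjusted p = 0.026 by edgeR). Leaving out wild type replicate 1 (0.52) or 2 (0.46), or Rad21 KO replicate 2 (0.43), ended the Kcnn4 call, while the Kcna3 call held with each library left out. Neither of these channel genes overlapped between the genotypes, as held for 58.9% of all genes tested. They were the called genes of 6 listed channels, all tested, of which 1 rose and 1 fell. Over all genes tested 7.60% were called higher and 5.17% lower.

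Of 13 genes for calmodulin and other calcium effectors, 1 rose and 3 fell, beside 7.60% of all genes tested called higher and 5.17% lower. Mef2d, a transcription factor activated by calcium signals, had 5504 and 5374 counts in Rad21 KO, against 2861 and 2643 in wild type, a log2 change of 0.99 (SE 0.10, adjusted p = 0.00259 by edgeR). Its paralog Mef2a stood at -0.54 (SE 0.14, adjusted p = 0.0445 by edgeR), with the call lost without wild type replicate 1 (-0.34) and without either Rad21 KO replicate (-0.52 and -0.53). The calmodulin-dependent kinase gene Camk4 stood at -0.62 (SE 0.12, adjusted p = 0.0192 by edgeR), with the call lost without wild type replicate 2 (-0.50). The calmodulin gene Calm3 was lower at -0.49 (SE 0.12, adjusted p = 0.0376 by edgeR), a call that ended without wild type replicate 1 (-0.40) or Rad21 KO replicate 2 (-0.39), while Calm2 stood at 0.27 and did not pass.

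**Figure D4:**
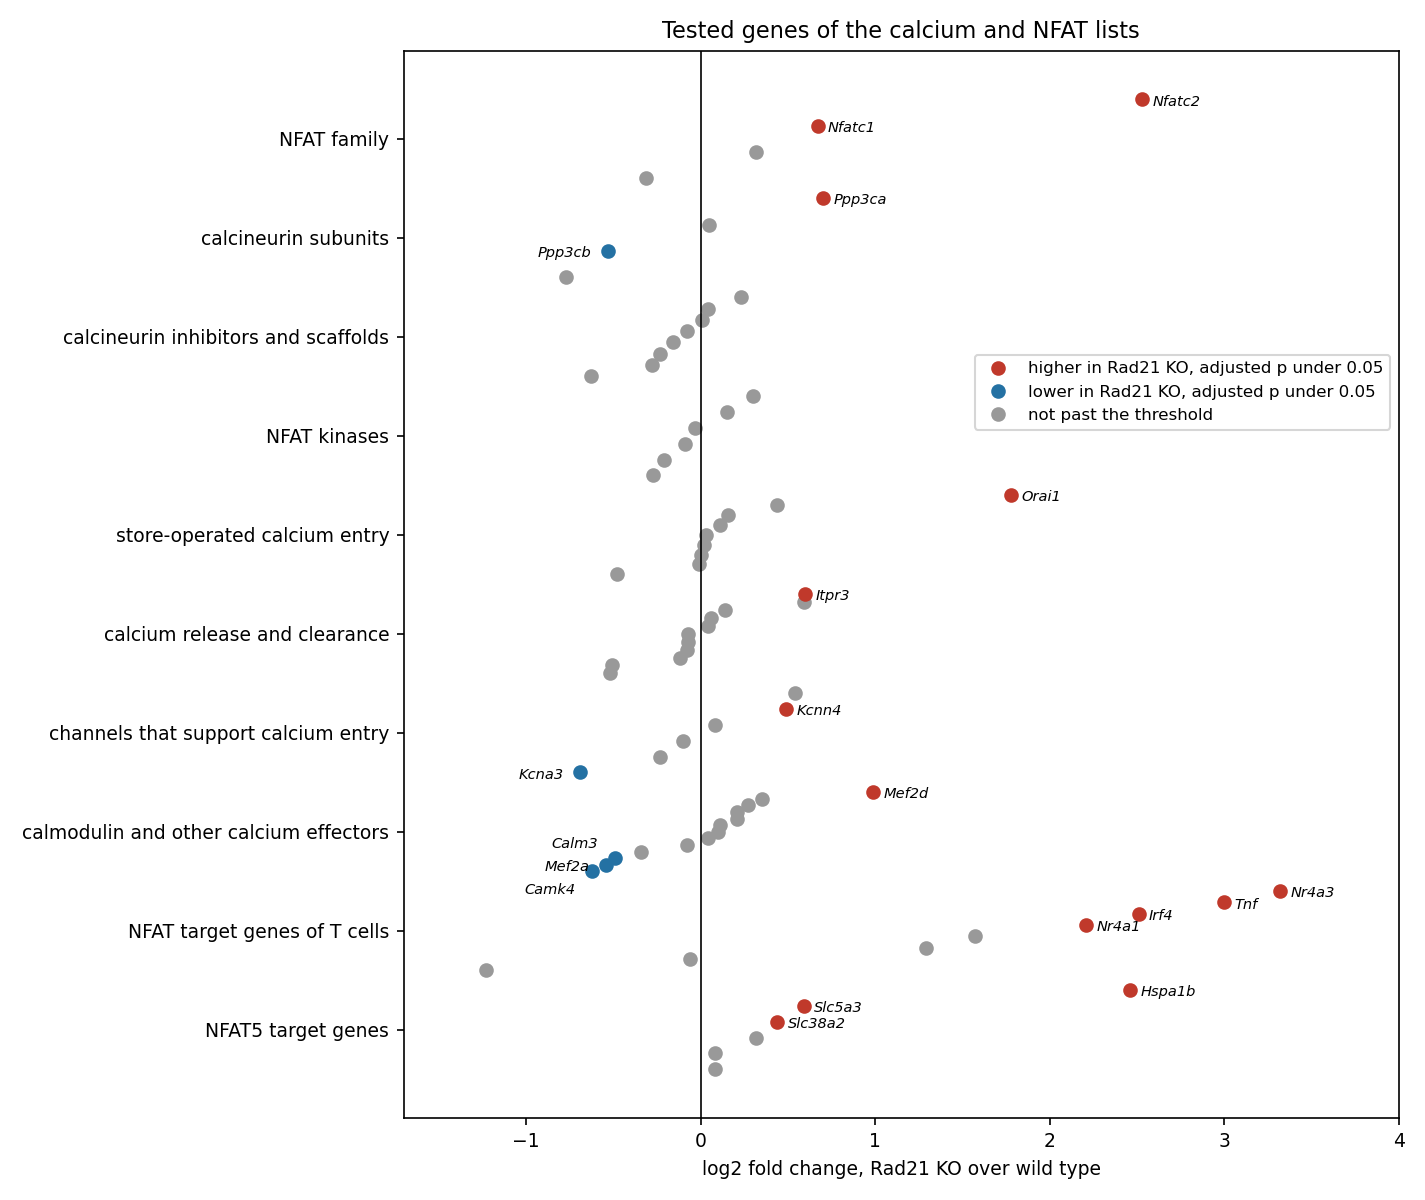
Log2 fold change, Rad21 KO over wild type (horizontal axis), of each tested gene in 10 lists of the calcium and NFAT pathway, 1 point per gene, with called genes named. Calcineurin inhibitors and NFAT kinases, both short lists, hold no called gene, beside 12.8% of all genes tested called. The 4 called NFAT target genes lie above 2.

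Known NFAT target genes of T cells included genes that were nearly silent, genes that rose and genes that did not pass the test. Of 18 listed, 16 were in the table, and 8 were abundant enough to test. Of these 4 rose, 0 fell and 4 did not pass, beside 7.60% of all genes tested called higher and 5.17% lower. Without Rad21 KO replicate 1, 1 listed gene was called lower. The cytokine genes Il2, Il4, Ifng and Csf2 had at most 1 count in any library, where 3 counts correspond to 0.41 to 0.417 CPM. Irf4, a transcription factor induced by receptor signals, had 160 and 227 counts in the Rad21 KO libraries, against 41 and 27 in the wild type libraries, a log2 change of 2.51 (SE 0.28, adjusted p = 0.00351 by edgeR). Nr4a3, Tnf and Nr4a1 were the other called genes, at 3.32, 3.00 and 2.21. Egr2, an early response factor, stood at -1.23 (SE 0.66) with 73 and 10 counts in Rad21 KO and 111 and 84 in wild type, and Egr3 at 1.29 (SE 0.36, adjusted p = 0.0588 by edgeR). These target genes also respond to other pathways, NF-κB among them.

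NFAT5 target genes were also higher in part. Of 8 listed, 7 were in the table and 6 were tested, of which 3 rose and 0 fell, beside 7.60% of all genes tested called higher. Without wild type replicate 1 or 2, or with the replicate number as a block, 1 was called higher. Slc5a3, a transporter of the osmolyte inositol, had 355 and 338 counts in Rad21 KO, against 235 and 227 in wild type, a log2 change of 0.59 (SE 0.13, adjusted p = 0.0284 by edgeR), with the call lost without either wild type replicate (0.60 and 0.57) and in DESeq2 (0.59, adjusted p = 0.062). The amino acid transporter Slc38a2 stood at 0.44 (SE 0.10, adjusted p = 0.0343 by edgeR), a call that ended without wild type replicate 1 (0.47) or 2 (0.40) or Rad21 KO replicate 1 (0.38). Hspa1b stood at 2.46 (SE 0.18), and it is also a heat-shock gene with a near-identical copy, Hspa1a, with which reads may be shared. The osmolyte genes Slc6a6, for the taurine transporter, and Akr1b3, for aldose reductase, stood at 0.32 and 0.08 and did not pass.

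**Figure D5:**
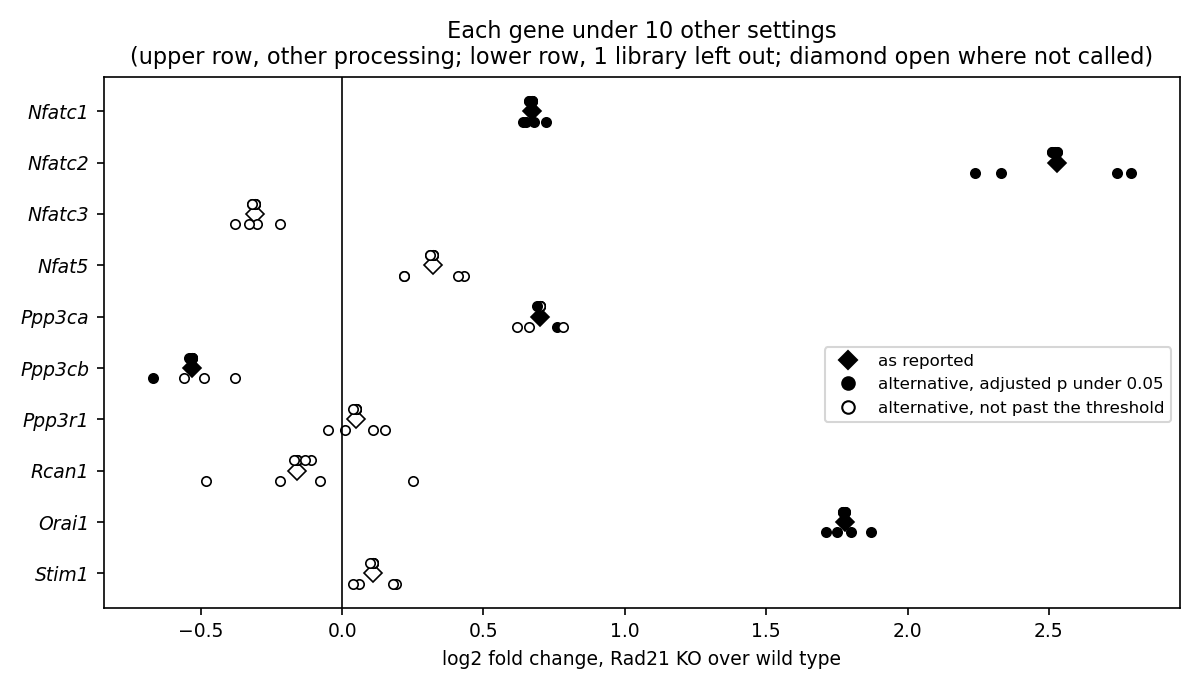
Log2 fold change, Rad21 KO over wild type (horizontal axis), of each of the 10 genes as reported and under 10 other settings, with filled marks where the adjusted p was under 0.05. Nfatc1, Nfatc2 and Orai1 were called in all 10, Ppp3ca and Ppp3cb in some, and the sign turned for Ppp3r1 and Rcan1 without wild type replicate 2.

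With Lars2 and Gm15564, whose share was larger in the Rad21 KO libraries, left out of the counts, Nfatc2 stood at 2.52, Orai1 at 1.77, Nfatc1 at 0.66, Ppp3ca at 0.69 and Ppp3cb at -0.54, all 5 still called. Markers of myeloid cells summed to 15.7 and 20.0 CPM in Rad21 KO and 28.8 and 33.9 CPM in wild type. Among them Itgam alone was called, lower at 8.35 and 8.62 CPM in Rad21 KO against 17.5 and 24 in wild type. Lyz2 stood at 0.34 on the log2 scale, Csf1r at -0.26 and Cd68 at -0.55. Markers of thymic epithelium summed to 26.1 and 29.5 CPM in Rad21 KO and 19.3 and 20.1 CPM in wild type. There Epcam was higher, Psmb11 (0.03) and Ccl25 (-0.86) did not pass, and the defining factor Foxn1 had at most 2 counts. Markers of NK cells summed to 17.7 and 23.6 CPM in Rad21 KO and 14.5 and 13.3 CPM in wild type. Il2rb stood at 1.66, Gzma at 0.88 and Prf1 at 0.04 on the log2 scale, none past the threshold. Klrb1c had 1 and 0 counts in Rad21 KO and 12 and 0 in wild type, and Klrd1 had at most 1 count. The part of these marker differences in the results was not tested. In bulk RNA from sorted cells, fewer cells of a type and less RNA per cell cannot be told apart.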

How the data were processed

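RNA-seq was made by the authors from rRNA-depleted total RNA with Illumina libraries, per the labels' protocols. The authors deposited 1 value per Ensembl gene and library, called count equivalents and taken here for estimated counts, since the values are whole and libraries have different totals. Per the submitters' processing notes the build is mm9. How reads were aligned and counted, and whether by strand, is not given in the sources used, so counts of genes that overlap another gene are uncertain. Symbols were found for 17342 of 17849 identifiers.

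Rounded counts went into edgeR 4.0.16 under R 4.3.3 (filterByExpr, TMM, quasi-likelihood test, no block, Benjamini-Hochberg adjustment, threshold 0.05). SE is the absolute log2 fold change over the square root of F, and intervals are 95%. Alternatives were RLE factors, DESeq2 1.42.0, voom in limma 3.58.1, no filter, a replicate block, Lars2 and Gm15564 left out, and each library left out. On simulated counts at these library sizes, over 11715 genes, 69 of 100 planted 2-fold and 95 of 100 planted 4-fold changes were recovered, and 7.87% of calls were not planted.

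Members, lists and named genes (all members, up to 4 called genes per list, otherwise its 2 most abundant) were chosen with earlier results of these data known. Other listed genes were named after their values were seen. Some listed genes are not reported here by name. Peak lists, whose build has no gene coordinates here, and length-scaled levels, which need transcript lengths, were not used. The labels list 13 samples, of which the 4 RNA-seq samples were analysed. Replicates of a genotype differed beyond counting error. The chi-square of replicate counts was 85.9 (Rad21 KO) and 7.43 (wild type) times its degrees of freedom. Lars2 and Gm15564 took 34.5% of Rad21 KO replicate 1 but 12.6% of replicate 2, beside 5.84% and 7.47% for wild type. What these genes added to each chi-square was not separated, so the values do not compare the spread of the other genes.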

Additional observations from a re-analysis of the deposited data

How the results depend on the processing

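Nfatc1, Nfatc2, Orai1 and Rad21 kept their direction and their call under all 10 alternatives, with ranges of 0.64 to 0.72, 2.24 to 2.79, 1.71 to 1.87 and -2.02 to -1.80. Without the low-count filter edgeR called 433 genes (285 higher, 148 lower), 3 of the 10 members (0 lower) and 9 of the pathway genes, members included, against 1533 (912 and 621), 5 (1 lower) and 19 as reported. That setting tests 17003 genes, and under it Ppp3ca and Ppp3cb were the members no longer called; the called pathway genes Itpr3, Kcna3, Kcnn4, Camk4, Mef2a, Calm3, Slc5a3 and Slc38a2 were also lost. With 1 library left out, the calls ranged from 947 to 1438 (574 to 880 higher, 373 to 558 lower), the members called from 3 to 5 (3 to 4 higher, 0 to 1 lower) and the pathway genes called from 12 to 19. Among these 4 fits the lowest count of calls over all genes came without wild type replicate 2. The cause of these drops was not tested.

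Deviations of same-numbered libraries from their genotype mean had r = 0.028 across 12003 genes. That value shows no sign of pairing by replicate number, but it cannot settle whether the samples were paired. With the replicate block, 381 genes were called lower and 1025 in all, 4 members stayed called, and Ppp3ca no longer passed, nor did Mef2a, Slc5a3 or Slc38a2. Signs turned for 4 genes that did not pass: Ppp3r1 (-0.05) and Rcan1 (0.25) without wild type replicate 2, Cabin1 (-0.04) without Rad21 KO replicate 1 and Chp1 (0.04) without wild type replicate 1. With 1 library left out, Ppp3r1 ranged from -0.05 to 0.15, Rcan1 from -0.48 to 0.25, Cabin1 from -0.04 to 0.13 and Chp1 from -0.20 to 0.04. Counts were high enough to test 75 of the 88 listed pathway genes in the table. Planned peak and length-scaled alternatives were not run.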
